A study of Mus musculus with 6 samples.

Results

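Nuclear receptors and the coregulators they recruit were examined in white adipose tissue of cold-exposed mice that lacked the transcription factor YY1 in fat. The set held 37 genes chosen by name, 28 receptors and 9 coregulators. Of these, 35 (27 receptors and 8 coregulators) had a probe set annotated to that gene alone and were measured, out of 12393 genes measured in the same way. The other two, the mineralocorticoid receptor gene Nr3c2 and the corepressor gene Ncor1, were not analysed here. The 35 genes had 68 such probe sets, from 1 to 6 per gene, and each gene is given by its brightest probe set unless stated.

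YY1aKO mice were YY1flox/flox, with recombination sites around part of Yy1, and carried Adiponectin Cre, a recombinase gene driven by a promoter active in adipocytes, so other cells of the tissue keep Yy1. Control mice carried the same flox alleles and, as the design text gives them, no Cre, and Cre and the loss of Yy1 cannot be told apart. All mice were 8 weeks old, of mixed C57BL6 and 129 background, and were kept at 4 °C for 4 days. RNA from 3 YY1aKO and 3 control samples was hybridised to 1-colour Affymetrix arrays, 1 array per sample, and no label says that the samples came from separate animals, so p-values cover the spread between these samples, which may be technical. The labels place the tissue both in a visceral depot (sample titles carry EWAT) and in a subcutaneous depot.

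Nuclear receptors are transcription factors, most of them switched by small fat-soluble ligands such as steroid hormones, thyroid hormone, retinoic acid, vitamin D, bile acids and fatty acids. Many bind DNA together with a retinoid X receptor (RXR). Bound to DNA they recruit coactivators, which open chromatin and contact the Mediator complex and RNA polymerase, or corepressors, which bring in histone deacetylases. In fat these pathways act on adipocyte formation, lipid storage and the response to cold.

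Values are RMA intensities on a linear scale, and differences are log2 values of YY1aKO less those of control, with the standard error (SE) of the limma fit. A gene is said to have passed where limma's Benjamini-Hochberg adjusted p over all 12393 genes was under 0.05. Yy1 itself fell by 2.37 ± 0.11 (SE, n = 3 each), or 5.18-fold, with an adjusted p of 0.00275. The white adipocyte markers were present on every array, with Adipoq at 19768 to 21714 in YY1aKO and 18586 to 24774 in control samples. Of the 8 measured, 7 were lowest in control 2. The median log2 difference of the 8 between control 2 and the mean of controls 1 and 3 was -1.05. Control 2 stood apart, with a correlation of 0.912 to 0.945 with the other 5 arrays across genes, against 0.963 or more among those 5. All 7 measured markers of the epididymis, a duct of the male reproductive tract, were highest there. They included Lcn8 at 28166, against 55.3 to 59.9 in YY1aKO and 49.2 and 50.6 in the other controls. Their summed intensity was 188 to 203 in YY1aKO, 178 in control 1, 103687 in control 2 and 862 in control 3, and Pate4 was low even in control 2 at 33.9. The differences are therefore given with all 6 arrays and with control 2 left out, which leaves 3 YY1aKO and 2 control arrays.

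With all 6 arrays, 2 of the 35 genes rose and none fell. The 2 were the coactivator genes Med1 and Ncoa2. These are 5.71% of the set higher and 0% lower, while over all genes tested 6.85% passed as higher and 3.99% as lower (10.8% in all), and 8 of the 35 (22.9%) had an unadjusted p under 0.05, beside 28.1% of all genes. Both calls were lost when any 1 array other than control 2 was left out (adjusted p of 0.0745 to 0.172 for Med1 and 0.0535 to 0.147 for Ncoa2). Over all genes, 0.202% to 0.944% passed without any 1 YY1aKO array or control 3, and 11.2% without control 1. Left without control 2, the set had 2 genes higher, again Med1 and Ncoa2, and 5 lower, namely the coactivator gene Ncoa3, the corepressor-complex gene Tbl1x and the receptor genes Nr2f2, Rxra and Rarb. That is 5.71% higher and 14.3% lower, beside 14.7% higher and 11.5% lower (26.1% in all) over all genes. The shares in the set thus lay near or under those over all genes, except for a slightly larger share lower without control 2. The median log2 difference of the set was 0.02 with 6 arrays and -0.03 without control 2, beside 0.04 and 0.01 over all genes.

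Differences in the set were small. Only Hnf4a differed by 1 log2 unit (2-fold) or more, and it did not pass. A difference of at least 0.5 was seen for 3 of the 35 genes in either comparison (8.57%), beside 24% of all genes with 6 arrays and 21.6% without control 2. The 95% interval of the difference lay wholly inside 2-fold in both directions for 31 of the 35 genes with 6 arrays and for 34 without control 2, that is 88.6% and 97.1%, beside 74.1% and 85% of all genes. That interval reached 0.33 to either side of the difference by its median with 6 arrays, and 0.28 without control 2, in log2 units. Only 17 of the 35 genes lay in the brightest 60% of all genes, and dim readings may hold background. A small difference of a dim gene thus cannot show that its transcript was unchanged.

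**Figure D1:**
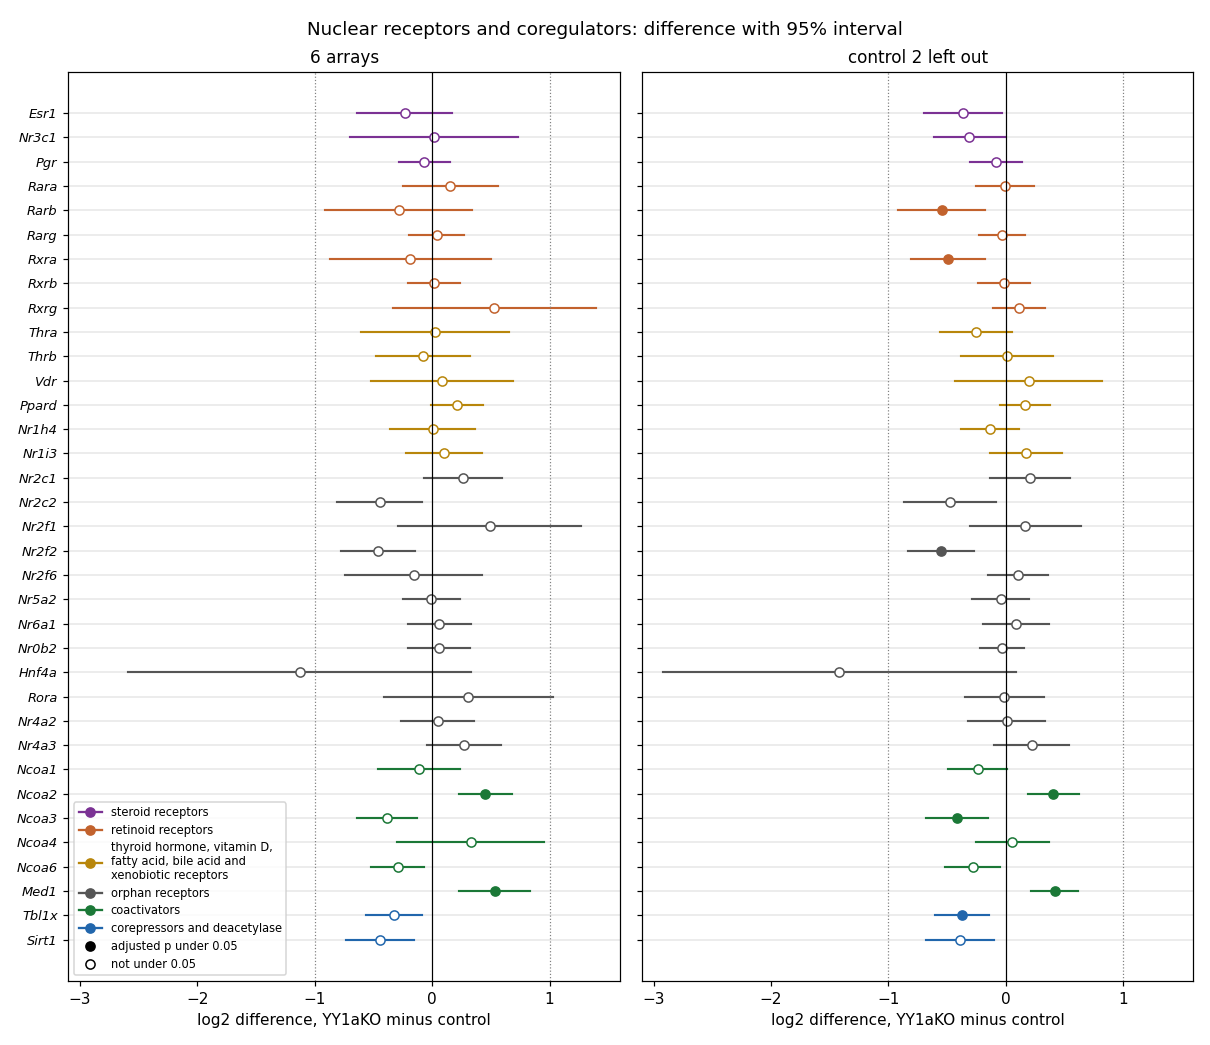
Log2 difference, YY1aKO minus control, with its 95% interval from the limma fit for the 35 measured genes, with all 6 arrays (left) and with control 2 left out (right). Filled points have an adjusted p under 0.05, colours give the role, and dotted lines mark 2-fold. Nearly all intervals lie between the dotted lines, Med1 and Ncoa2 are filled on both sides, and Hnf4a has the widest interval.

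Of 6 coactivator genes, 2 (33.3%) rose with 6 arrays, beside 6.85% of all genes, in a list so small that 1 call weighs heavily. Without control 2 the same 2 were higher and 1 (16.7%) was lower, beside 14.7% and 11.5% of all genes. Med1 encodes the Mediator subunit that receptors bind directly. It read 842, 821 and 803 in YY1aKO 1 to 3, against 592, 486 and 639 in controls 1 to 3. Every YY1aKO array lay above every control array, and the YY1aKO arrays lay close together. The log2 difference was 0.53 ± 0.12 with an adjusted p of 0.049, and 0.42 ± 0.08 with an adjusted p of 0.0169 without control 2. Its other 5 probe sets all had positive differences, from 0.07 to 0.26, and none passed. With the mean of its probe sets Med1 had 0.24 and an adjusted p of 0.226. It also missed the threshold with quantile normalization run again (adjusted p = 0.0606) and with an intensity trend and robust prior (adjusted p = 0.0537).

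Ncoa2 encodes a member of the p160 family of coactivators, which dock on the ligand-binding domain of many receptors. It has 1 probe set and read 20.1, 22.3 and 20.1 in YY1aKO, against 15.9, 14.3 and 15.5 in control samples. The groups did not overlap and Ncoa2 was higher in YY1aKO by 0.45 ± 0.09 (adjusted p = 0.0356), or by 0.41 ± 0.09 without control 2 (adjusted p = 0.0225). So low a reading may hold an unknown share of background, since no detection calls were used. With a pseudocount of 16 added before the log, the difference was 0.24 and the adjusted p 0.0622.

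Ncoa3 encodes another p160 coactivator. Its readings were 95.9, 105.7 and 93.4 in YY1aKO, against 141.5, 122.6 and 121.6 in controls 1 to 3. No YY1aKO array reached a control array. The difference was -0.39 ± 0.10 with 6 arrays, which did not pass (adjusted p = 0.0715), and -0.42 ± 0.11 without control 2, which did (adjusted p = 0.0374). Ncoa1, the first member of that family, differed by -0.11 ± 0.14 with 6 arrays and -0.24 ± 0.10 without control 2, and passed in neither comparison (adjusted p = 0.647 and 0.139). Its 95% interval with 6 arrays ran from -0.46 to 0.24, and its second probe set had -0.15 and, without control 2, -0.30.

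Ncoa6 encodes a coactivator that sits in a histone methyltransferase complex. It read 439.9, 496 and 429 in YY1aKO, against 548, 569 and 554 in control samples, a difference of -0.29 ± 0.09. The groups were apart but the gene did not pass with 6 arrays (adjusted p = 0.0996) or without control 2 (-0.28 ± 0.09, adjusted p = 0.0824). Ncoa4, known both as a receptor coactivator and as the carrier that delivers ferritin for breakdown, read 3391 to 3551 in YY1aKO, and 3794, 1886 and 2924 in controls 1 to 3. Its difference of 0.33 ± 0.25 came with control 2 far below the other arrays. Without it the value was 0.06 ± 0.13 (adjusted p = 0.784).

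On the repressive side, Tbl1x and Sirt1 were measured. Tbl1x encodes a subunit of the NCoR/SMRT corepressor complex. It read 1206, 1323 and 1239 in YY1aKO, against 1719.9, 1466 and 1538 in controls 1 to 3. All YY1aKO arrays lay below all control arrays. The difference of -0.32 ± 0.10 did not pass with 6 arrays (adjusted p = 0.0946) and passed without control 2 (-0.37 ± 0.09, adjusted p = 0.0347). The other probe sets of Tbl1x also had negative differences. When every probe set was tested on its own, one of them had -0.52 and passed with 6 arrays (adjusted p = 0.0226), and all 3 passed without control 2, at -0.37, -0.44 and -0.55. Sirt1, an NAD-dependent deacetylase that acts on receptor cofactors, read 205, 181 and 224 in YY1aKO, against 278, 298 and 252 in control samples. Its groups did not overlap either, yet the difference of -0.44 ± 0.12 did not pass (adjusted p = 0.0705), nor did that of -0.39 ± 0.12 without control 2 (adjusted p = 0.0611).

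**Figure D2:**
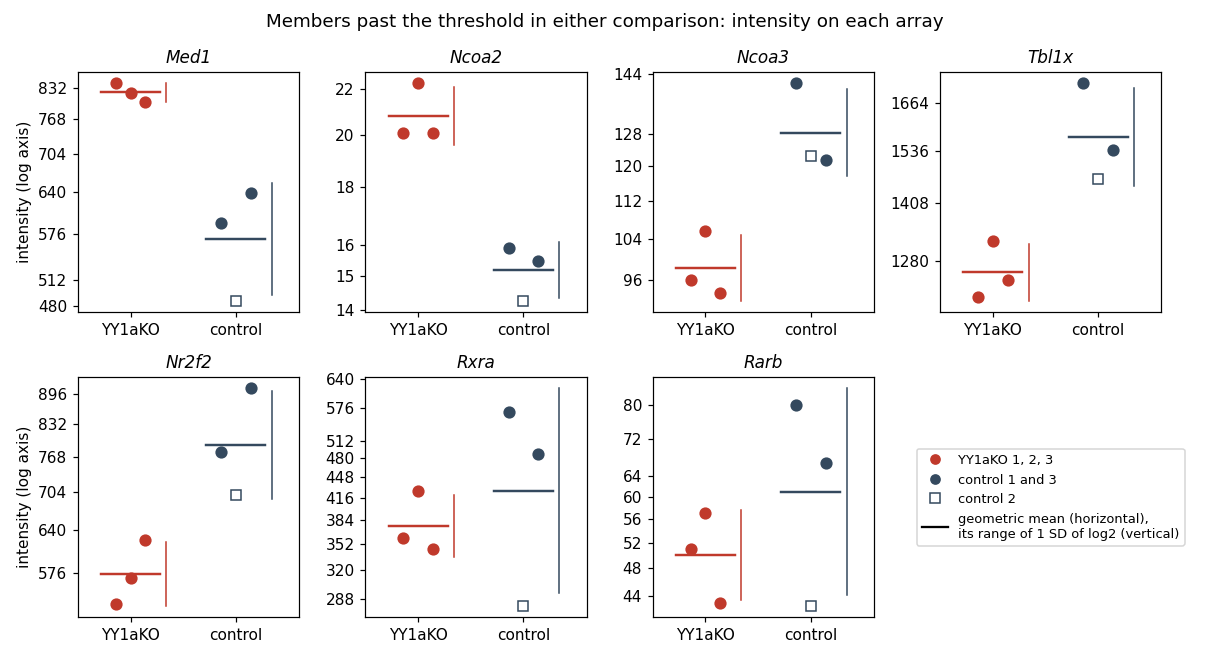
Intensity on each array (log axis) for the 7 genes that passed in either comparison, YY1aKO left and control right. Horizontal lines are geometric means, vertical lines span 1 SD of the log2 values either side (n = 3), and open squares are control 2. Med1 and Ncoa2 lie higher in YY1aKO, the groups of Ncoa3, Tbl1x and Nr2f2 are also apart, and for Rxra and Rarb control 2 lies below the YY1aKO points while controls 1 and 3 lie above them.

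Among the receptors, none of the 27 passed with 6 arrays, and 3 (11.1%) passed as lower without control 2, beside 11.5% of all genes. Of these, Nr2f2 had groups apart on all 6 arrays. It encodes COUP-TFII, an orphan receptor known from venous endothelium and stromal cells and as a brake on adipocyte formation. The readings were 533, 569 and 625 in YY1aKO, against 777, 699 and 909.8 in controls 1 to 3. The difference was -0.46 ± 0.13 (adjusted p = 0.0797), and -0.55 ± 0.11 without control 2 (adjusted p = 0.0204). A second probe set had -0.42, and -0.51 without control 2, where it passed too (adjusted p = 0.013), and the third had -0.11 and -0.23 and passed in neither.

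Some markers of other cell types were also lower in YY1aKO than in controls 1 and 3, though few passed. The summed intensity of 8 endothelial markers was 2996 to 3662 in YY1aKO, against 4841 in control 1, 1748 in control 2 and 4100 in control 3, and 6 of the 8 (75%) had all YY1aKO arrays below controls 1 and 3, as had 25.2% of all genes. For 9 progenitor or fibroblast markers the sum was 24238 to 30028 in YY1aKO, against 33228, 22873 and 34977 in controls 1 to 3, and 8 of the 9 (88.9%) lay below controls 1 and 3 on every YY1aKO array. For 6 mesothelial markers it was 3053 to 5461 in YY1aKO, against 6486, 7584 and 7750.2 in controls 1 to 3. These 6 were split in control 2, where Krt8 (4265) and Krt19 (1288) were the highest of the 6 arrays. The other 4 markers were lowest in control 2. The sum of 10 macrophage markers was 12610.5 to 15143 in YY1aKO, against 15329.8, 8266 and 15446 in controls 1 to 3, and of these 10 markers 2 had all YY1aKO arrays below controls 1 and 3 and 1 had them above. Without control 2, 2 endothelial, 2 progenitor or fibroblast, 1 mesothelial and 1 macrophage marker passed as lower, and with 6 arrays none did. Their part in the difference of Nr2f2 and of the other genes lower without control 2 was not tested. In bulk tissue, fewer cells of a type and less RNA per cell cannot be told apart.

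The retinoid receptors were read lowest in control 2 in all 6 cases. Rxra, the RXR that partners many receptors of fat, read 359, 426 and 345 in YY1aKO, against 569, 280.1 and 488 in controls 1 to 3. Control 2 lay below all YY1aKO arrays and the other 2 controls above them. The difference was -0.19 ± 0.28 with 6 arrays (adjusted p = 0.704) and -0.49 ± 0.13 without control 2 (adjusted p = 0.0401). The second Rxra probe set had -0.11 and -0.21 and did not pass in either. Rarb, a retinoic acid receptor gene that is itself a classical target of retinoic acid, had the same layout, with 51.0, 57.0 and 43.0 in YY1aKO, against 80.0, 42.6 and 66.6 in controls 1 to 3. It differed by -0.29 ± 0.25 (adjusted p = 0.514), and by -0.55 ± 0.15 without control 2 (adjusted p = 0.0457). Both calls were made only with control 2 left out or, for Rarb, with arrays weighted, and without control 1 the Rxra difference was 0.02.

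Rxrg, the RXR found mainly in muscle and brain, read 174 to 176 in YY1aKO, against 172, 68.5 and 151 in controls 1 to 3. The YY1aKO arrays lay just above the highest control, and the difference of 0.53 ± 0.35 shrank to 0.12 ± 0.09 without control 2 (adjusted p = 0.383 and 0.389). The sum of 8 skeletal muscle markers was 1371 to 2208 in YY1aKO and 354 to 426 in control samples. This came mostly through Acta1, the muscle actin gene (3.43 ± 0.30, adjusted p = 0.00891). Of the 8, Acta1 alone passed with 6 arrays, and 2 passed as higher without control 2. The median log2 difference of the 8 was 0.04 with 6 arrays and 0.07 without control 2. The part of muscle in the Rxrg reading was not tested. Rxrb, found in most tissues, read 491 to 556 in YY1aKO and 489 to 534 in control samples, with a 95% interval from -0.21 to 0.24 for the log2 difference. The retinoic acid receptor genes Rara (0.16 ± 0.16, and -0.01 ± 0.10 without control 2) and Rarg (0.04 ± 0.10, and -0.03 ± 0.08) did not pass either.

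Of the steroid receptors, the glucocorticoid receptor gene Nr3c1 read 1514, 1555 and 1243 in YY1aKO, against 1828, 902 and 1720.2 in controls 1 to 3. The YY1aKO values fell between control 2 and the other controls. Its difference was 0.01 ± 0.29, with an interval from -0.70 to 0.73, and -0.31 ± 0.12 without control 2 (adjusted p = 0.12). A second Nr3c1 probe set passed without control 2, at -0.42 (adjusted p = 0.0351), while the last, at -0.74, did not. The oestrogen receptor gene Esr1 read 11.4 to 14.8 in YY1aKO and 13.1 to 18.2 in control samples, and the progesterone receptor gene Pgr 11.1 to 12.1 in YY1aKO and 11.8 to 13.0 in control samples. Such readings lie at the low end of the scale, and neither gene passed. Esr1 had -0.24 ± 0.16 with 6 arrays and -0.36 ± 0.14 without control 2 (adjusted p = 0.405 and 0.104), where all YY1aKO arrays lay below both controls. Pgr had -0.07 ± 0.09 and -0.08 ± 0.09.

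The receptors for thyroid hormone, vitamin D, fatty acids, bile acids and xenobiotics gave no call. Thra, the main thyroid hormone receptor gene of fat, read 218 to 264 in YY1aKO, against 265, 162 and 315 in controls 1 to 3, with differences of 0.03 ± 0.26 and, without control 2, -0.25 ± 0.12. Its second probe set passed without control 2, at -0.32 (adjusted p = 0.0346). Ppard, which encodes the fatty acid receptor PPARδ, read 63.1, 63.8 and 58.7 in YY1aKO, against 57.0, 50.2 and 53.4 in control samples. The groups did not overlap, but the difference of 0.21 ± 0.09 did not pass (adjusted p = 0.197), nor did 0.16 ± 0.08 without control 2 (adjusted p = 0.21). Thrb had -0.08 ± 0.16 with 6 arrays and 0.01 ± 0.16 without control 2, and the vitamin D receptor gene Vdr 0.08 ± 0.25 and 0.20 ± 0.25. The bile acid receptor gene Nr1h4 had 0.00 ± 0.15 and -0.13 ± 0.10, and the xenobiotic receptor gene Nr1i3 0.10 ± 0.13 and 0.17 ± 0.12. These 4 genes had intervals that included 0 in both comparisons.

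Among the other orphan receptors, Nr2c2, which encodes TR4, read 176, 127 and 169.7 in YY1aKO, against 227, 205 and 208 in control samples. The groups were apart and the difference was -0.45 ± 0.15 (adjusted p = 0.115) with 6 arrays and -0.47 ± 0.16 (adjusted p = 0.0816) without control 2. Its 3 dimmer probe sets had -0.04, 0.08 and 0.18. Nr2c1, the gene of the related receptor TR2, had a positive difference of 0.26 ± 0.13 that did not pass (adjusted p = 0.263), and 0.21 ± 0.14 without control 2 (adjusted p = 0.315).

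Hnf4a, best known as a liver and gut receptor, read 92.6, 53.6 and 61.8 in YY1aKO, against 86.8, 99.0 and 373 in controls 1 to 3. A single array, control 3, carried the difference of -1.13 ± 0.59 (adjusted p = 0.277), which was -1.42 ± 0.61 without control 2 (adjusted p = 0.147). A dimmer Hnf4a probe set read 8.60 to 10.8 in YY1aKO, against 10.1, 18.3 and 80.1 in controls 1 to 3, while the other two differed by 0.14 and -0.13. Control 3 also held the second highest level of Gpx5, an epididymal peroxidase, which read 37.2 to 41.5 in YY1aKO, against 39.0, 21047 and 639 in controls 1 to 3. In control 3, Lcn5 (50.1), Cst11 (20.9) and Adam7 (75.5) were also second highest of the 6 arrays. Lcn8 (49.2) and Cst12 (18.8) were lowest there, and Pate4 (8.85) lay within its YY1aKO range (8.20 to 8.90). The part of the epididymis in the Hnf4a reading was not tested.

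Nr2f1 (COUP-TFI) differed by 0.49 ± 0.32 and Rora, a receptor of the clock and lipid metabolism, by 0.31 ± 0.29, both with control 2 as the lowest array at 117 and 493. Without it these values were 0.17 ± 0.19 and -0.01 ± 0.14, and neither passed. Nr2f6 showed the opposite layout, with control 2 highest at 515, and had -0.16 ± 0.24 and, without control 2, 0.10 ± 0.10. The immediate early genes Nr4a2 (0.05 ± 0.13, and 0.01 ± 0.13 without control 2) and Nr4a3 (0.27 ± 0.13, and 0.22 ± 0.13) did not pass. Nr5a2 (-0.01 ± 0.10), Nr6a1 (0.06 ± 0.11) and Nr0b2 (0.06 ± 0.11), the last a receptor-like repressor without a DNA-binding domain, had intervals within 0.33 of zero in log2 units with 6 arrays. Without control 2 they had -0.04 ± 0.10, 0.08 ± 0.11 and -0.03 ± 0.08, in the same order.

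Control 2 lay outside the range of the other 5 arrays for 22 of the 35 genes (62.9%) and within it for 13, and over all genes it lay outside for 62%. It was the lowest of the 6 arrays for 19 of the 35 genes (54.3%) and the highest for 3 (8.57%), beside 37.5% and 24.5% over all genes. The sign of the difference changed between the comparisons for 10 of the 35 genes (28.6%), beside 15.3% of all genes. With all arrays the groups did not overlap for 4 genes higher (11.4%) and 6 lower (17.1%), beside 22.4% and 15.5% (37.9% in all) over all genes. Without control 2 this held for 4 higher (11.4%) and 12 lower (34.3%), beside 30.1% and 25.2% (55.3% in all).

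**Figure D3:**
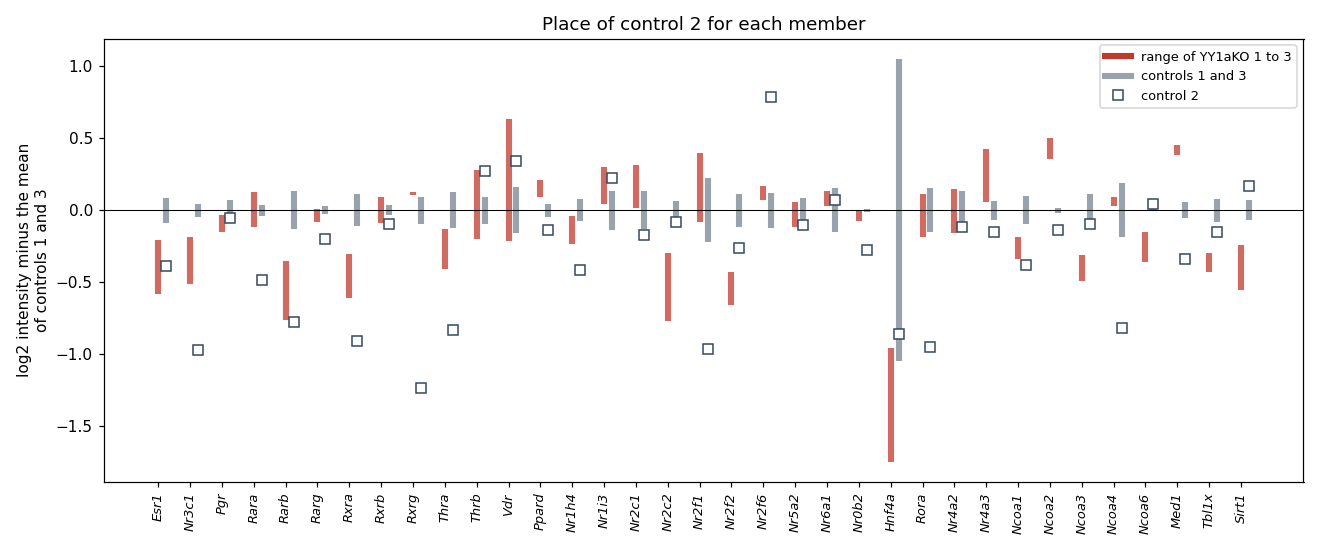
Log2 intensity of each gene relative to the mean of controls 1 and 3, with the range of the 3 YY1aKO arrays (red bars), controls 1 and 3 (grey bars) and control 2 (open squares). Squares lie below both bars for 19 of the 35 genes, lowest for Rxrg, and above them for 3, highest for Nr2f6. The grey bar of Hnf4a is the longest.

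Of the 35 genes, 19 had more than 1 probe set. None had probe sets that passed in opposite directions. Tested one by one, 2 of the 68 probe sets passed as higher and 1 as lower with 6 arrays, beside 6.96% and 3.85% of all 20380 probe sets, and 2 and 10 without control 2, beside 14.5% and 10.9% (25.3% in all). All 3 probe sets of Tbl1x passed without control 2, while those of Hnf4a ran from -1.39 to 0.14 with 6 arrays.

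**Figure D4:**
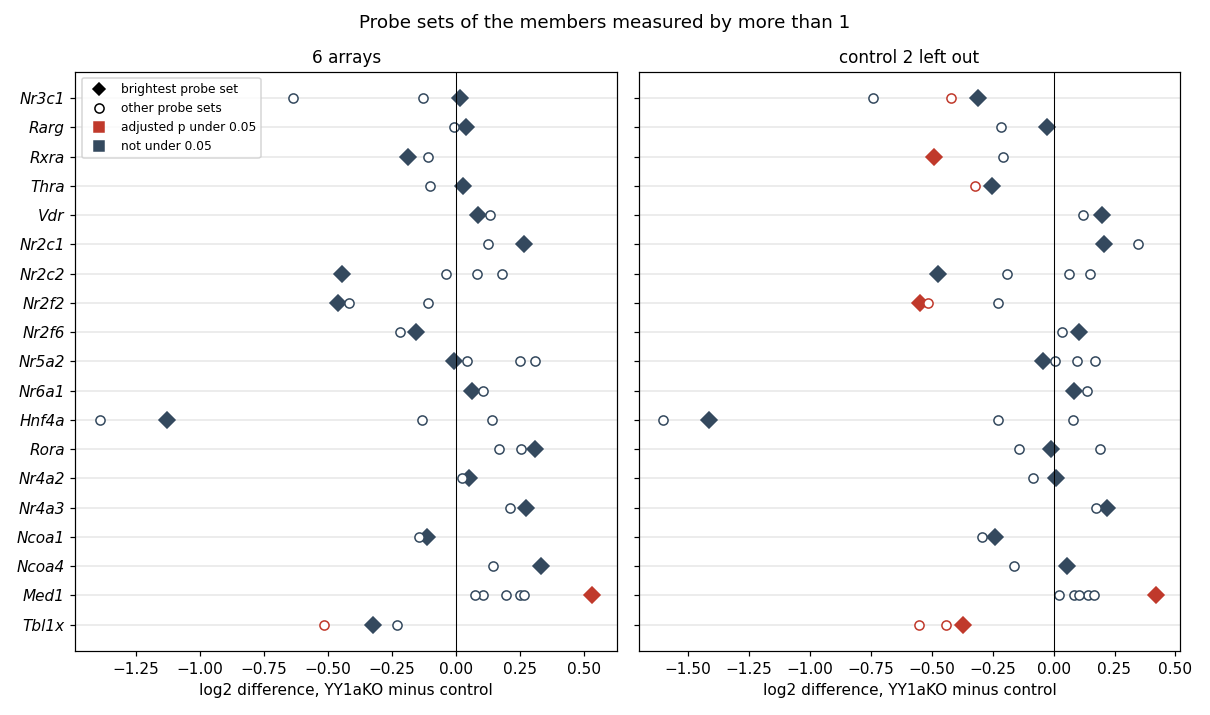
Log2 difference, YY1aKO minus control, of every probe set of the 19 genes measured by more than 1, with 6 arrays (left) and with control 2 left out (right). Diamonds are the brightest probe sets, circles the others, and red marks an adjusted p under 0.05. The Tbl1x probe sets lie together left of 0, those of Med1 all lie right of 0 with a single red one, and those of Hnf4a are spread.

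Receptors and coregulators outside the set were counted in the same way. Of 15 other measured receptors, 1 (6.67%) passed as higher and none as lower with 6 arrays, beside 6.85% and 3.99% of all genes. This was Esrrb, an orphan receptor gene of stem cells, at 27.8 to 30.1 in YY1aKO and 21.4 to 23.0 in control samples (0.41 ± 0.08, adjusted p = 0.0355, or 0.25 and 0.109 with the mean of its probe sets). Without control 2 there were 2 higher, the other being Nr1h3, the gene of the oxysterol receptor LXRα (0.70, adjusted p = 0.0147). Nr1h3 read 579, 630.2 and 666 in YY1aKO, against 432, 149 and 341 in controls 1 to 3, and had 1.16 ± 0.39 with 6 arrays (adjusted p = 0.124). Of 23 other coregulators 1 (4.35%) passed as higher and 2 (8.7%) as lower, and without control 2, 2 (8.7%) and 5 (21.7%), beside 14.7% and 11.5% of all genes. Nrip1, which encodes the receptor corepressor RIP140, read 1150.1, 979 and 985 in YY1aKO, against 2148, 2055 and 2440.4 in control samples, a difference of -1.09 ± 0.11 (adjusted p = 0.0103). Ppargc1a, the coactivator PGC-1α of mitochondrial genes, had -2.93 ± 0.36 (adjusted p = 0.0121). It read 22.3, 15.3 and 35.0 in YY1aKO, against 163, 134 and 242 in controls 1 to 3. The low YY1aKO readings may hold background, so the size of this difference is uncertain. Bud31, a splicing-factor gene also described as a receptor cofactor in human cells, had 0.67 ± 0.11 (adjusted p = 0.0226, or 0.25 and 0.125 without _s_at and _x_at probe sets). The further calls without control 2 were the acetyltransferase gene Kat2b at 0.46, and Ppargc1b (-0.99), Smarcd3 (-0.35) and Cited2 (-1.57). With 6 arrays they had 0.63, -0.73, -1.13 and -0.98 and did not pass (adjusted p = 0.0706, 0.144, 0.319 and 0.321). Control 2 lay within the YY1aKO range for Ppargc1b and Cited2. For Smarcd3 it read 1281, against 243 and 263 in controls 1 and 3. With 1 array left out, Esrrb lost its call in 5 of 6 cases (adjusted p up to 0.153), Nrip1 in 2, without YY1aKO 2 or 3 (up to 0.0694), and Ppargc1a and Bud31 in 4, without each YY1aKO array and without control 3 (up to 0.0678 and 0.109).

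Target and handling genes of these receptors were also counted, in lists small enough that 1 call weighs heavily, beside 6.85% higher and 3.99% lower over all genes with 6 arrays, and 14.7% and 11.5% without control 2. Of 11 genes of retinoic acid response and handling, none passed with 6 arrays, and 2 were higher and 1 lower without control 2. The retinol carrier gene Rbp4 had -1.70 ± 0.45 (adjusted p = 0.068) and -2.19 without control 2 (adjusted p = 0.00305). Stra6, the receptor for that carrier, had 0.41 ± 0.10 (adjusted p = 0.0622) and, without control 2, 0.33 (adjusted p = 0.0388). Its readings were low, at 30.1 to 32.0 in YY1aKO and 21.2 to 26.0 in control samples, and may hold background. Tgm2, a transglutaminase gene, passed at 0.30 without control 2. Of 7 thyroid hormone genes 1 was higher, the fatty acid synthase gene Fasn (1.77 ± 0.33, adjusted p = 0.0286), and without control 2, 2 were higher, Fasn and the malic enzyme gene Me1 (0.80), and 1 lower, the hairless gene Hr (-0.38).

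In the glucocorticoid list none of 12 passed with 6 arrays, and 3 (25%) had an unadjusted p under 0.05, beside 28.1% of all genes. None was higher and 5 (41.7%) were lower without control 2, beside 14.7% and 11.5% of all genes. Fkbp5, a chaperone partner of the glucocorticoid receptor and a target of it, read 674, 806 and 939 in YY1aKO, against 1737, 3419 and 1460.3 in controls 1 to 3. All YY1aKO arrays lay below all controls, with -1.36 ± 0.34 (adjusted p = 0.0581) and -0.99 without control 2 (adjusted p = 0.0103). Fkbp4, another chaperone of steroid receptors, had -1.60 ± 0.45 (adjusted p = 0.0797) and -1.08 (adjusted p = 0.00685). The other 3 were Pck1 (-1.51), Tsc22d3 (-0.78) and Hsd11b1 (-0.43), all without control 2. With 6 arrays these 3 had -0.91, -0.38 and -0.03 (adjusted p = 0.338, 0.531 and 0.965), and control 2 was the lowest of the 6 arrays for each. Of 10 PPAR targets 1 was lower, the peroxisomal enzyme gene Ehhadh (-1.30 ± 0.28, adjusted p = 0.0415), and without control 2, 1 was higher, the lipid droplet gene Plin2 (0.82), and 3 were lower, Ehhadh, Acadl (-1.01) and Ucp3 (-0.71). Fasn and Ehhadh lost their 6-array calls without each YY1aKO array and without control 3 (adjusted p up to 0.127 and 0.157). The medians of these 4 lists with 6 arrays were -0.07, 0.28, -0.31 and -0.01 in the order given, and -0.30, -0.02, -0.49 and -0.13 without control 2.

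Because YY1 is the factor removed, RefSeq promoter windows of the set (GRCm38.p6, 250 bases before to 50 after an annotated start) were searched on both strands for GCCATNTT, a core of its binding motif (AANATGGC on the other strand), and for AGGTCA, the core word bound by many nuclear receptors (TGACCT on the other strand). Windows were found for 31 of the 35 genes, 46 in all. The YY1 core was in 3 of the 46 (6.52%), those of Ncoa1, Rxrb and Thrb, beside 6.05% of all 32851 windows, and the receptor word was in 10 (21.7%), beside 16.3% of all windows. None of these 3 genes passed in either comparison, and the window of Med1 holds neither word. A match is a description of the letters and not a site. The windows of Med1, which passed, of Ncoa1 and Rxrb, as uncalled genes with the YY1 core, and of Rxra, with the receptor word, are shown from 5′ to 3′ on the gene's strand, with the matches in capitals. They lie at chr11:98192857-98193156 (minus strand), chr12:4477133-4477432 (minus), chr17:34031562-34031861 (plus) and chr2:27709042-27709341 (plus), in the order Med1, Ncoa1, Rxrb, Rxra.
Med1: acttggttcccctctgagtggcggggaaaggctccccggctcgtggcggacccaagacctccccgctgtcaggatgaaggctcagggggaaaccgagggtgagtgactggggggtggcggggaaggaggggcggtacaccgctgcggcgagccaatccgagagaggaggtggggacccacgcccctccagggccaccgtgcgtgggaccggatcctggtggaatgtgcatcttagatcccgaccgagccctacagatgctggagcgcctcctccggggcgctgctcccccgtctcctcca
Ncoa1: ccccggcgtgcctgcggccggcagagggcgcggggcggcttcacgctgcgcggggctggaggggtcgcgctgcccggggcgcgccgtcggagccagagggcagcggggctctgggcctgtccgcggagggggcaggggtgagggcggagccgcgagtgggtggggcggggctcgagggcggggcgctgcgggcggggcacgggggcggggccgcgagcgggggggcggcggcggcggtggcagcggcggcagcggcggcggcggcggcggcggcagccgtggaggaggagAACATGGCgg
Rxrb: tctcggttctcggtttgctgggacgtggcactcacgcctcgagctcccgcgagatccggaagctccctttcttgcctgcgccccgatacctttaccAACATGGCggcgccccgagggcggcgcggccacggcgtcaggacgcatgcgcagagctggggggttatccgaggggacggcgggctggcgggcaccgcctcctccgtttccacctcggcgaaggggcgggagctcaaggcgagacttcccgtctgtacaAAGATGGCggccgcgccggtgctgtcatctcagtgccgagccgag
Rxra: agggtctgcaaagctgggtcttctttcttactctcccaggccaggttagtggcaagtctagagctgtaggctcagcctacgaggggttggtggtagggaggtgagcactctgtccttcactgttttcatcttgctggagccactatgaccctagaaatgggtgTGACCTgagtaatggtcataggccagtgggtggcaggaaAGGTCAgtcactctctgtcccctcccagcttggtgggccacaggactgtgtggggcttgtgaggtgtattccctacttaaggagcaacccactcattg

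In the Ncoa1 window the match starts 41 bases into the transcript, and in the Rxrb window the matches start 154 bases before and at base 6 of the transcript. That Rxrb window is 1 of 2 for the gene, and the other holds neither word. The receptor words of the Rxra window start 87 and 48 bases before that annotated start, which is 1 of 2 for the gene, and the other Rxra window holds neither word. Ncoa1 and Rxrb had log2 differences of -0.11 and 0.02 with 6 arrays.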

How the data were processed

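White adipose tissue RNA of 3 YY1aKO and 3 control samples was measured on 1-colour Affymetrix arrays. The deposited file gives an intensity for each probe set on each array. RMA produced it, per the submitters' processing notes, and its version and settings are not given in the sources used here. RMA usually gives log2 values, but these intensities run from 6.09 to 30322 on a linear scale, so log2 was taken here. RMA makes arrays alike, which removes a change shared by most genes. Median intensities were 135 to 141. Precision is limited by the small number of arrays.

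Of 22690 probe sets, 64 array controls were left out, 20380 had a single symbol in the platform annotation (20351 matched to RefSeq by Entrez ID, 0 symbols updated), 691 several and 1555 none. Each of 12393 genes was represented by its brightest probe set, with no brightness filter, and 17 of the 35 measured genes of the set lay in the brightest 60%. limma 3.58.1 in R 4.3.3 (lmFit, eBayes, two-sided, Benjamini-Hochberg over all genes, threshold 0.05) was fitted to 6 arrays and without control 2, and checked on simulated data. The members, lists and alternatives were chosen with earlier results of these data known. Every member is named, with values per array for those called in either fit and for others on which a sentence turns, together with up to 4 called genes (or the 2 of smallest p) of each other list, Yy1 and epididymal markers. Other named genes (those of the other lists called only without control 2, Adipoq, Pate4, Acta1, Krt8 and Krt19) were chosen after their values were seen. Replicate numbers were not taken to pair samples. The deviations of same-numbered samples from their group means correlated at -0.12, -0.08 and -0.10. The control mean includes control 2, which stood apart, so these values cannot show or exclude pairing.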

Additional observations from a re-analysis of the deposited data

How the results depend on the processing

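With all 6 arrays 2 genes of the set passed as higher and none as lower. The count higher was 1 with the mean of all probe sets (Ncoa2), with the brightest 60% or 40% of genes (Med1, as Ncoa2 is too dim for either filter), with quantile normalization again (Ncoa2), with an intensity trend and robust prior (Ncoa2) and with a pseudocount of 16 (Med1), and 0 at a threshold of 0.01. At a threshold of 0.1 it was 2 higher and 5 lower, and more of all genes passed in both directions too. With array weights, whose estimate stopped before convergence, it was 3 higher and 8 lower. These are 11 of the 35 genes, while 39.5% of all genes passed with array weights. With the replicate number as a block the count was 0 higher and 0 lower (12 of all genes passed). Whether the numbers pair samples is not known, and why the calls were lost was not tested. Leaving out 1 array at a time gave 0 to 2 higher and 0 to 5 lower. Both Med1 and Ncoa2 lost their call without each array other than control 2 (adjusted p from 0.0745 to 0.172 for Med1 and from 0.0535 to 0.147 for Ncoa2), with differences of 0.51 to 0.62 and 0.40 to 0.48. Over all genes the counts were 849 higher and 495 lower, and 10 to 1817 higher and 15 to 1422 lower with 1 array left out.

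Without control 2, 2 genes were higher and 5 lower. With the brightest 60% of genes, 1 of 17 was higher and 4 were lower, Sirt1 among them, while 45.1% of all such genes passed in either direction. With 1 YY1aKO array left out as well, 0 were higher. The count lower was then 0 without YY1aKO 1, 1 without YY1aKO 2 (Rxra) and 1 without YY1aKO 3 (Nr2f2). Over all genes 17.2%, 14.1% and 14.3% passed in these runs, in the same order. Where control 1 or control 3 was left out as well, 1 control array remained. It would have to be assumed to vary like the YY1aKO arrays, so counts of those runs are not given. Of the 7 genes that passed in either comparison, 6 had the same direction in every alternative run, and Rxra, at -0.19 with 6 arrays, had 0.02 without control 1. Leaving an array out reduces the samples, and the other causes were not tested. How far background limits the low readings is not known without detection calls.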
